A study of Homo sapiens with 8 samples.

Results

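The 10 genes described here are CTNNB1, LEF1, TCF7, TCF7L2, GLUL, LGR5, AXIN2, NKD1, RNF43 and DKK1, which carry, report or restrain Wnt/beta-catenin signalling. They were chosen by name from 16169 genes in the count tables. The rule sets no measured value, but earlier results of these data were known when they were chosen, and the transcript rows of each gene were summed. All 10 had rows in both tables and passed the filter on low counts in both.

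In the canonical Wnt pathway, a destruction complex built on AXIN and APC keeps beta-catenin, the product of CTNNB1, low until a Wnt ligand binds Frizzled and LRP receptors. Stabilised beta-catenin then enters the nucleus and acts with the DNA-binding factors of the TCF/LEF family, encoded by LEF1, TCF7 and TCF7L2. In the liver this signal is strongest around the central vein, where GLUL, which encodes glutamine synthetase, and LGR5, a receptor for R-spondins, are transcribed. AXIN2, NKD1, RNF43 and DKK1 are also transcribed in response to the signal, and their products turn it down at the destruction complex, at Dishevelled, at the Frizzled receptor and at the LRP co-receptor.

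The cells were Hep3B, a line from a human hepatocellular carcinoma, and 4 conditions gave 2 RNA-seq libraries each. These were Hep3B, Hep3B with SOX4 knockout (CRISPR/Cas9 lines, SOX4-/-, numbered #1 and #2 in the study's methods), Hep3B given control siRNA (scramble) and Hep3B given STAT6 siRNA. The labels give MEM with fetal bovine serum for all 4 conditions, and the study's methods add puromycin for the SOX4-/- cells, so the drug and the knockout cannot be told apart. The labels do not say which knockout line gave which library or whether the 2 libraries of a group came from separate cultures, so p-values measure only the spread between these libraries. The study set the knockout against Hep3B and the STAT6 siRNA against control siRNA, each in a table of its own, and the same pairs are compared here. Values are CPM, that is, counts scaled to a common library total with edgeR's TMM factors, and differences are log2 fold changes with their standard errors (SE) from edgeR's quasi-likelihood test, with p-values adjusted by the Benjamini-Hochberg method over all genes of the table.

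Library totals ran from 16266282 to 25353113 estimated read counts. All 12 hepatocyte markers checked had counts in every library, with ALB, the albumin gene, between 5095 and 28445 CPM. The SOX4 transcript had 799 and 266 CPM in Hep3B, against 298 and 302 CPM in the libraries labelled SOX4 knockout (log2 fold change -0.83, adjusted p = 0.372, edgeR). The groups overlapped, so the transcript does not check that label. In the same comparison STAT6 had 32.0 and 13.2 CPM in Hep3B, against 2.76 and 2.20 CPM in SOX4 knockout, and fell (log2 fold change -3.18, adjusted p = 0.0275, edgeR). In the siRNA comparison STAT6 had 42.5 and 31.4 CPM with control siRNA, and 9.92 and 5.98 CPM with STAT6 siRNA (log2 fold change -2.22, unadjusted p = 0.00834, adjusted p = 1.00, edgeR).

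Per kilobase of transcript, with the 8 libraries scaled together, DKK1, GLUL and CTNNB1 had ranges above those of the other 7 genes. DKK1 led with a median of 278 CPM per kb (range 49.0 to 509), followed by GLUL with 137 (60.0 to 212) and CTNNB1 with 44.0 (19.9 to 64.0). Next came TCF7 with a median of 10.7 CPM per kb (4.13 to 17.0), TCF7L2 with 8.25 (5.96 to 12.2) and RNF43 with 7.44 (5.20 to 11.9). The lowest medians were those of LEF1 with 2.56 CPM per kb (1.71 to 4.53), LGR5 with 1.36 (0.742 to 2.65), AXIN2 with 0.681 (0.395 to 1.21) and NKD1 with 0.288 (0.0407 to 0.494). In this order the ranges of neighbouring genes overlapped, except CTNNB1 above TCF7 and RNF43 above LEF1. These ranges pool the 4 conditions. Within every library GLUL was above CTNNB1 and LGR5 above AXIN2, while the other overlapping neighbours changed places between libraries. LEF1 still overlapped TCF7 further up the order. The lengths of TCF7 and RNF43 came from part of their transcripts. The length used for NKD1, 17.1 kb, may not be that of its counted transcript, which ended at 50640861 where the RefSeq gene ended at 50649249. A shorter length would raise its values per kilobase, so its place as the lowest was not settled. In raw counts AXIN2 had 21 to 104 per library, NKD1 21 to 163, LGR5 44 to 174 and LEF1 66 to 185, against 1773 to 20346 for DKK1.

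**Figure D1:**
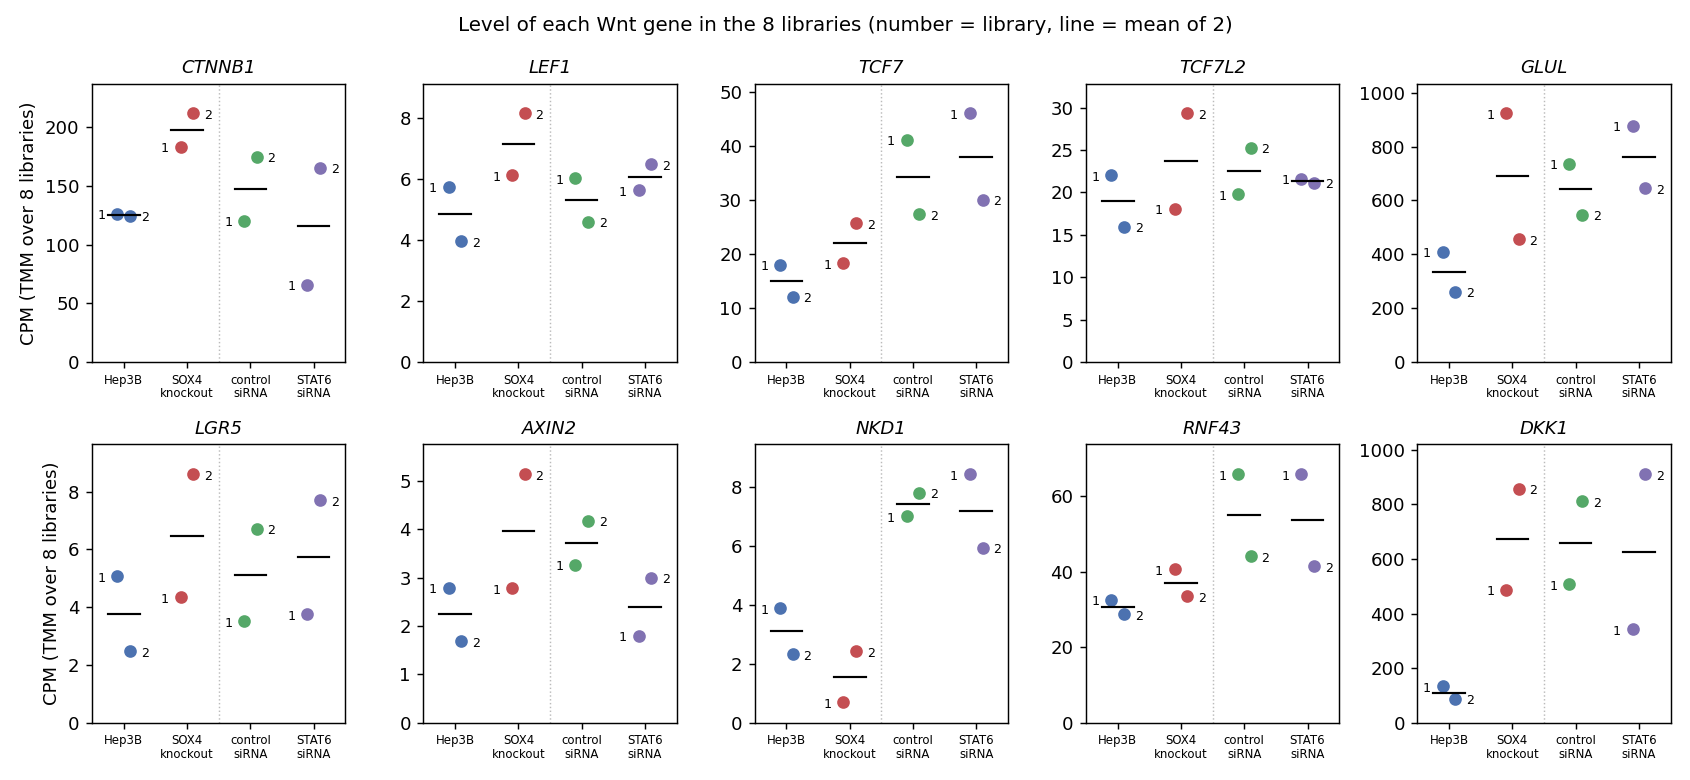
Level of each gene in CPM (vertical axes, linear, from 0) in the 8 libraries scaled together. Points are libraries with their numbers, black lines are means of 2, and the dotted line separates the 2 tables. The 2 Hep3B libraries of DKK1, at 133 and 87.8 CPM, lie below the other 6, which run from 342 to 911 CPM.

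In SOX4 knockout against Hep3B, DKK1, which encodes a secreted antagonist of the LRP5 and LRP6 co-receptors, was the 1 gene of the 10 that passed the test, and it rose. Of all 14415 genes tested, 849 passed (5.89%), 4.50% as higher and 1.39% as lower. The count of 849 became 2298 and 1322 without Hep3B library 1 or 2, and 73 and 21 without SOX4 knockout library 1 or 2. At an unadjusted p under 0.05 there was also 1 of the 10, DKK1, where 26.0% of all genes were. The other 9 genes did not pass. Their log2 fold changes ran from -0.96 for NKD1 to 1.10 for GLUL. Counted with DKK1, 9 of 10 had a log2 fold change above 0, where 50.4% of all genes tested did, and the median of the 10 was 0.66 against 0.01 for all genes. In 7 of the 10, both knockout libraries lay above both Hep3B libraries, which held for 30.6% of all genes. In 0 of the 10 both lay below, which held for 27.4%.

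Among the nuclear effectors, CTNNB1 (chromosome 3, 41199505 to 41240443, GRCh38.p14) had 139 and 133 CPM in Hep3B, and 210 and 236 CPM in SOX4 knockout. Both knockout libraries were above both Hep3B libraries, and the gap was wide beside the spread within each pair. The log2 fold change was 0.71 (SE 0.34, 95% interval -0.06 to 1.49, adjusted p = 0.224, edgeR), which did not pass. LEF1 (chromosome 4, 108047548 to 108168932) had 6.30 and 4.22 CPM in Hep3B, and 7.01 and 9.07 CPM in SOX4 knockout. Here too the groups were apart, but knockout library 1 was close to Hep3B library 1, and the log2 fold change of 0.61 (SE 0.50, adjusted p = 0.474, edgeR) did not pass.

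TCF7 (chromosome 5, 134108218 to 134148210), which encodes TCF1, had 19.8 and 12.8 CPM in Hep3B, and 20.9 and 28.6 CPM in SOX4 knockout. The pairs were apart by a small gap, with a log2 fold change of 0.60 (SE 0.41, adjusted p = 0.385, edgeR). TCF7L2 (chromosome 10, 112950247 to 113167678), which encodes TCF4, had 24.1 and 17.0 CPM in Hep3B, and 20.6 and 32.6 CPM in SOX4 knockout. These pairs overlapped, and the log2 fold change was 0.37 (SE 0.41, adjusted p = 0.604, edgeR). None of these 4 effector genes passed the test, and all 4 had log2 fold changes above 0.

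Of the liver targets, GLUL (chromosome 1, 182378098 to 182391790) had 449 and 278 CPM in Hep3B, and 1055 and 506 CPM in SOX4 knockout. Both knockout libraries were above both Hep3B libraries, with knockout library 1 far above the other 3. The log2 fold change of 1.10 (SE 0.50, 95% interval -0.07 to 2.27) had an unadjusted p of 0.0616 and an adjusted p of 0.214 from edgeR. LGR5 (chromosome 12, 71439129 to 71586310) had 5.56 and 2.64 CPM in Hep3B, and 4.96 and 9.57 CPM in SOX4 knockout. Knockout library 1 lay between the Hep3B libraries, and the log2 fold change of 0.82 (SE 0.61, adjusted p = 0.427, edgeR) did not pass. The libraries high in GLUL and in LGR5 were different ones: knockout library 1 was the higher of its pair for GLUL and the lower for LGR5.

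Of the feedback inhibitors, AXIN2 (chromosome 17, 65528563 to 65561648), the inducible AXIN scaffold, had 3.06 and 1.79 CPM in Hep3B, and 3.18 and 5.72 CPM in SOX4 knockout. The pairs were apart, but Hep3B library 1 and knockout library 1 were nearly equal. The log2 fold change was 0.87 (SE 0.62, 95% interval -0.56 to 2.30, adjusted p = 0.408, edgeR). NKD1 (chromosome 16, 50548396 to 50649249), a Dishevelled-binding inhibitor, had 4.26 and 2.48 CPM in Hep3B, and 0.795 and 2.69 CPM in SOX4 knockout. It was the 1 gene of the 10 with a log2 fold change below 0, at -0.96 (SE 0.75, adjusted p = 0.452, edgeR), and the pairs overlapped.

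RNF43 (chromosome 17, 58352500 to 58417534), the ubiquitin ligase that removes Frizzled receptors from the cell surface, had 35.6 and 30.5 CPM in Hep3B, and 46.5 and 37.2 CPM in SOX4 knockout. The pairs were apart by a small gap, with a log2 fold change of 0.34 (SE 0.35, adjusted p = 0.577, edgeR). Thus AXIN2, NKD1 and RNF43, 3 of the 4 feedback inhibitors, did not pass.

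DKK1 (chromosome 10, 52314281 to 52317657) had 146 and 93.5 CPM in Hep3B, and 558 and 953 CPM in SOX4 knockout. Both knockout libraries were far above both Hep3B libraries, although the knockout pair itself was widely spread. The log2 fold change was 2.66 (SE 0.48, 95% interval 1.55 to 3.77), a fold of 6.32, with an adjusted p of 0.0276 from edgeR, and DKK1 ranked 309 of 14415 genes by p. The call was lost without SOX4 knockout library 1 (log2 fold change 3.01, adjusted p = 0.0850, edgeR) and without library 2 (2.19, adjusted p = 0.169). Over its 12 alternatives the adjusted p ran from 1.55e-06 to 0.169.

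**Figure D2:**
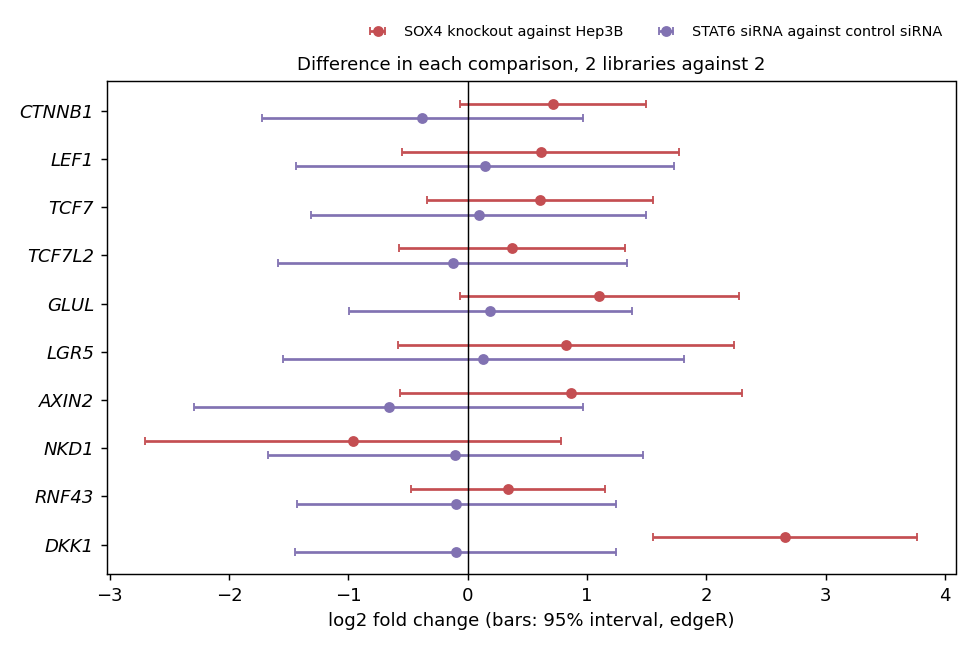
Log2 fold change of each gene (horizontal axis) in SOX4 knockout against Hep3B (red) and in STAT6 siRNA against control siRNA (purple), with 95% intervals from edgeR, 2 libraries against 2. The interval of DKK1 in the knockout comparison, 1.55 to 3.77, is the one of the 20 that does not reach 0.

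The promoter letters of DKK1 are shown because it is the gene that passed. RefSeq windows of 300 bases (GRCh38.p14, 250 before to 50 after each start) were searched on both strands for the 4 TCF/LEF words of 7 letters made of CTTTG followed by AA, AT, TA or TT. Each of these read on the other strand is also a word of the consensus the study gives for SOX4, so the families cannot be told apart by them. The 4 words made of AA, AT, TA or TT followed by CAATG belong to that SOX consensus alone. The tables held 12 windows for 7 of the 10 genes, and those of LGR5, AXIN2 and NKD1 were not analysed here. A TCF/LEF word was found in the single window of DKK1, in 1 of 2 windows of TCF7 and in 1 of 3 windows of TCF7L2. Of all 35116 windows, 13.8% held one. The single window of DKK1 held 2, with first bases at -95 and -76 from the start and 12 bases between them, and 1.58% of all windows held 2 or more. A word of the SOX consensus alone was found in 1 of the 3 windows of TCF7L2, and 8.51% of all windows held one. The matches are printed 5′ to 3′ on the + strand with the words in capitals, DKK1 at chr10:52314184-52314213, TCF7 at chr5:134123558-134123584, and TCF7L2 at chr10:113126490-113126516 (TCF/LEF word) and chr10:112950127-112950153 (SOX word).
DKK1: cgCTTTGAAatcccatcccggCTTTGTTgt
TCF7: gccccactggAACAAAGgaggagagag
TCF7L2 with the TCF/LEF word: aaatatcaggCTTTGTTcttttgattg
TCF7L2 with the SOX word: ccgaaaggatCATTGTTagccgccccc
Of these 3 genes, DKK1 passed the test in the knockout comparison and TCF7 and TCF7L2 did not. The TCF/LEF word of TCF7 lay downstream of the starts of its counted transcripts (134114711 to 134115659 on chromosome 5). That of TCF7L2 lay downstream of the start of its counted transcripts (112950250 on chromosome 10). Both words thus belong to starts that no counted transcript used. A match describes the letters of these windows and is not a measured binding site.

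In STAT6 siRNA against control siRNA, none of the 10 genes passed edgeR's test, and none of the 13554 genes tested did (0%). DESeq2 also called 0. At an unadjusted p under 0.05 there were 14 genes (0.103%), and 0 of the 10 were among them. Libraries of the same number departed from their group means together in this experiment (correlation 0.873), and this fit did not model the number. Its lack of calls therefore does not show that nothing changed. The log2 fold changes of the 10 ran from -0.66 for AXIN2 to 0.19 for GLUL, 4 above 0 and 6 below, with a median of -0.10 against -0.03 for all genes. Each of the 10 had an adjusted p of 1.00 from edgeR. AXIN2 was the 1 gene with both STAT6 siRNA libraries below both control libraries, which held for 5.26% of all genes, and 0 of the 10 had both above, which held for 2.74%.

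AXIN2 had 3.0 and 3.87 CPM with control siRNA, and 1.54 and 2.76 CPM with STAT6 siRNA. Both STAT6 siRNA libraries lay below both control libraries, the upper one narrowly. The log2 fold change of -0.66 (SE 0.76, 95% interval -2.29 to 0.97) had an unadjusted p of 0.398 from edgeR. DKK1 had 465 and 751 CPM with control siRNA, and 294 and 839 CPM with STAT6 siRNA. The STAT6 siRNA libraries were the lowest and the highest of the 4, and the log2 fold change was -0.10 (SE 0.63, 95% interval -1.45 to 1.24).

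CTNNB1 had 111 and 162 CPM with control siRNA, and 56.8 and 153 CPM with STAT6 siRNA, a log2 fold change of -0.38 (SE 0.63). GLUL had 677 and 506 CPM with control siRNA, and 754 and 595 CPM with STAT6 siRNA, a log2 fold change of 0.19 (SE 0.55). In both genes the pairs overlapped, and STAT6 siRNA library 1 was the lowest of the 4 for CTNNB1 and the highest for GLUL. LGR5 had 3.22 and 6.22 CPM with control siRNA, and 3.23 and 7.10 CPM with STAT6 siRNA, so the spread within each pair exceeded the difference between pairs (log2 fold change 0.13).

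LEF1 had 5.54 and 4.27 CPM with control siRNA, and 4.85 and 5.98 CPM with STAT6 siRNA (log2 fold change 0.15). TCF7 had 37.8 and 25.3 CPM with control siRNA, and 39.7 and 27.7 CPM with STAT6 siRNA (log2 fold change 0.09). TCF7L2 had 18.1 and 23.4 CPM with control siRNA, and 18.6 and 19.5 CPM with STAT6 siRNA (log2 fold change -0.13). The pairs of all 3 TCF/LEF genes overlapped. RNF43 had 60.4 and 40.8 CPM with control siRNA, and 56.6 and 38.1 CPM with STAT6 siRNA (log2 fold change -0.10, and 0.0134 with median-of-ratios scaling). NKD1 had 6.44 and 7.24 CPM with control siRNA, and 7.27 and 5.49 CPM with STAT6 siRNA (log2 fold change -0.10, and 0.00387 with median-of-ratios scaling). These pairs overlapped as well, and the sign of both values changed with the scaling.

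The difference between the effects of the SOX4 knockout and the STAT6 siRNA was tested in a fit of all 8 libraries, which called 11 of 14313 genes (0.0769%) and 0 of the 10. At an unadjusted p under 0.05 there was 1 of the 10, DKK1, against 6.56% of all genes. For DKK1 the knockout effect exceeded the siRNA effect by 2.68 on the log2 scale (SE 0.82, 95% interval 0.92 to 4.44, unadjusted p = 0.00557, adjusted p = 0.341, edgeR). For AXIN2, whose values lay on opposite sides of 0 in the 2 comparisons, the difference was 1.44 (SE 0.92, 95% interval -0.53 to 3.41, adjusted p = 0.933, edgeR). For CTNNB1 it was 1.01 (SE 0.75, unadjusted p = 0.200, adjusted p = 0.974, edgeR). The unadjusted p of each of the other 7 genes was above that of CTNNB1.

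With all 8 libraries on one scale, the Hep3B libraries were the low ones for DKK1. It had 133 and 87.8 CPM in Hep3B, 488 and 858 CPM in SOX4 knockout, 507 and 811 CPM with control siRNA, and 342 and 911 CPM with STAT6 siRNA. The means were 110 ± 31.9, 673 ± 261, 659 ± 215 and 626 ± 403 CPM (SD, n = 2 each), so both knockout libraries lay within the range of the siRNA-treated ones. Control siRNA minus Hep3B was 2.58 on the log2 scale for DKK1 (SE 0.61, unadjusted p = 0.000765, adjusted p = 0.169, edgeR). SOX4 knockout minus Hep3B was 2.61 in the fit of all 8 libraries (2.66 in that of its own table). Both contrasts rest on the same Hep3B libraries. The contrast of control siRNA with Hep3B called 1 of 14313 genes (0.00699%) and none of the 10. Transfection and the separate table cannot be told apart in it.

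For 3 of the 10 genes all 4 siRNA-treated libraries lay above the 4 of the other table, which held for 12.3% of all genes. TCF7 had 27.4 to 46.1 CPM in the siRNA-treated libraries and 12.0 to 25.7 CPM in the others. NKD1 had 5.96 to 8.45 CPM against 0.696 to 3.88 CPM, and RNF43 had 41.4 to 65.8 CPM against 28.7 to 40.7 CPM. For 0 of the 10 all 4 lay below, which held for 13.4% of all genes. Control siRNA minus Hep3B was 1.19 for TCF7 (unadjusted p = 0.0487, adjusted p = 0.252), 1.26 for NKD1 (adjusted p = 0.304) and 0.85 for RNF43 (adjusted p = 0.356) on the log2 scale, all from edgeR, and none passed. GLUL, in turn, had 409 and 261 CPM in Hep3B, the lowest 2 of the 8 libraries, and 455 to 923 CPM in the other 6.

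The tables give estimated counts per RefSeq transcript, which allowed the makeup of each gene to be compared. CTNNB1 had 3 transcripts. NM_001904 made up 20.0% and 28.9% of CTNNB1 counts in Hep3B, and 47.1% and 47.5% in SOX4 knockout. With control siRNA it made up 31.9% and 23.6%, and with STAT6 siRNA 33.2% and 34.4%. The knockout libraries were thus the 2 highest of the 8, with a gap of 18.3 percentage points to the higher Hep3B library. Of the 22089 transcripts compared in that table, 1.51% had a gap at least as large. Compared were transcripts of genes with at least 2 transcripts, a mean of at least 100 counts and counts in every library. NM_001098209 made up 32.7% and 39.8% in Hep3B, and 25.2% and 23.2% in SOX4 knockout. NM_001904 was singled out after its values were seen, no test was run on shares, and an estimate of this kind divides reads that fit several transcripts.

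**Figure D3:**
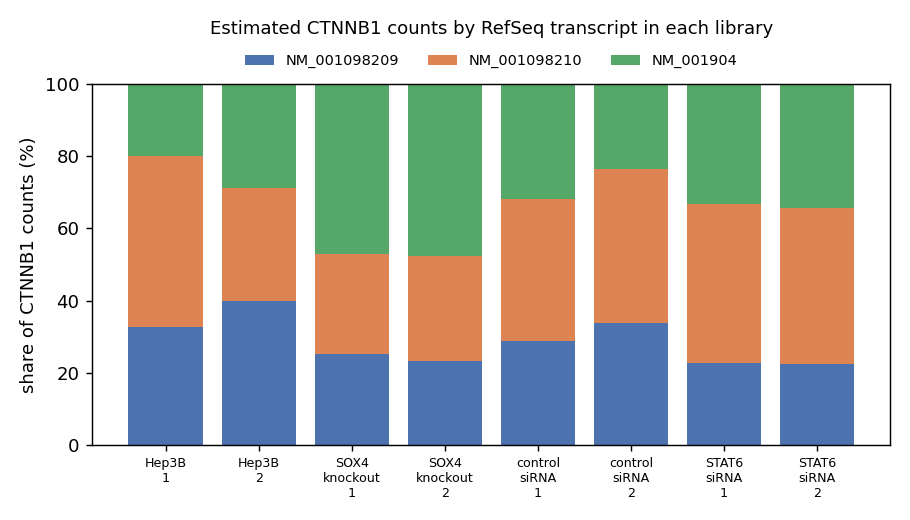
Share of CTNNB1 estimated counts (vertical axis, percent, stacked to 100) by RefSeq transcript in each of the 8 libraries. The green share, NM_001904, is 47.1% and 47.5% in the SOX4 knockout libraries and between 20.0% and 34.4% in the other 6.

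Over the 35 transcripts of the genes with more than 1 transcript, shares did not overlap between groups in 17 (48.6%) in the knockout table. This held for 39.9% of all transcripts compared there, chosen by the same limits on counts. In the siRNA table they did not overlap in 14 (40.0%), against 31.2% of all those compared. GLUL was made up of NM_001033044 at 91.4% to 93.8% in every library. RNF43 was made up mostly of NM_017763, at 65.2% to 77.5%. In TCF7, NM_201632 had 50.01% and 56.8% in Hep3B, and 40.2% and 24.5% in SOX4 knockout. In LEF1, NM_016269 had 10.5% and 1.83% in Hep3B, and 28.7% and 26.8% in SOX4 knockout, from 80 to 185 counts of the gene per library. AXIN2, NKD1 and DKK1 had 1 transcript each in the tables.

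The rest of the pathway was described from 8 lists of 135 genes, with 92 tested in the knockout table. Of these, 13 rose and 2 fell (16.3% called, against 5.89% of all genes), with a median log2 fold change of 0.58 against 0.01. The lists were chosen with earlier results known, so these figures support nothing beyond their own values. Genes such as WNT4 and WNT10B, with 1 and 3 counts in each Hep3B library, passed the low-count filter only through the knockout libraries and could only rise. The same holds for KREMEN2, HAMP, CD44, MMP7, ARG1 and G6PC, with 0 to 13 counts in the Hep3B libraries. With a list of periportal genes added for contrast, 16 of 103 rose and 2 fell (17.5% called), with a median of 0.68. These 18 calls became 10 when at least 10 counts were required in every library. The count of 18 was 5 without SOX4 knockout library 1, 0 without library 2 and 32 without Hep3B library 1. Of 90 tested in the siRNA comparison, periportal genes included, 0 passed edgeR's test, with a median of 0.00. The 1 with an unadjusted p under 0.05 there, named after its value was seen, was CPS1 of the urea cycle (log2 fold change 1.95, unadjusted p = 0.0289, edgeR). The 4 R-spondins were not analysed here.

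Of 11 Wnt ligand and secretion genes tested, 2 rose and 9 did not pass. WNT10B had 3 counts in each Hep3B library, and 117 and 185 in SOX4 knockout, a ratio of 41.3 with a 95% counting interval of 18.7 to 113 (adjusted p = 0.0189, edgeR). WNT4 had 1 count in each Hep3B library, and 46 and 39 in SOX4 knockout, a ratio of 34.9 with a counting interval of 9.36 to 293 (adjusted p = 0.0275, edgeR). Both ligands stayed at low levels, and the intervals cover counting error only.

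Of 14 receptor genes, FZD4, a Frizzled receptor, rose from 8.12 and 12.0 CPM to 59.8 and 44.3 CPM (log2 fold change 2.37, SE 0.40, adjusted p = 0.0250, edgeR), and 13 did not pass. Of 13 other inhibitors, 2 rose. DKK3, of the Dickkopf family, went from 1.25 and 0.738 CPM to 39.0 and 31.1 CPM (log2 fold change 5.14, adjusted p = 0.00872, edgeR). KREMEN2, the co-receptor through which DKK1 removes LRP6 from the surface, went from 0.284 and 0.527 CPM to 6.06 and 15.2 CPM (log2 fold change 4.68, adjusted p = 0.0223, edgeR). KREMEN2 had 5 and 10 counts in Hep3B, and 160 and 276 in SOX4 knockout. It passed the low-count filter only through the knockout libraries and could only rise. ZNRF3, the partner of RNF43, had 39.1 and 48.2 CPM in Hep3B and 76.6 and 52.7 CPM in SOX4 knockout. It did not pass (log2 fold change 0.57, adjusted p = 0.364, edgeR).

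Of 16 genes of the destruction complex and Dishevelled, 1 fell and 15 did not pass, and the median was -0.14. TNKS, which encodes tankyrase, the enzyme that marks AXIN for degradation, fell from 120 and 194 CPM to 38.8 and 31.6 CPM (log2 fold change -2.16, SE 0.39, adjusted p = 0.0277, edgeR). Of 13 nuclear cofactors, 2 rose, both Groucho corepressors of TCF/LEF factors. TLE2 went from 4.48 and 3.22 CPM to 26.8 and 25.3 CPM (log2 fold change 2.76, adjusted p = 0.0216, edgeR), and TLE3 from 4.77 and 2.48 CPM to 20.9 and 24.6 CPM (log2 fold change 2.65, adjusted p = 0.0303, edgeR).

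Of 8 further genes of the pericentral list, 2 rose, 1 fell and 5 did not pass. The list was drawn up here, and the liver zone of its genes, HAMP among them, was not measured in these cells. TBX3, a T-box factor, went from 25.3 and 23.6 CPM to 82.4 and 74.3 CPM (log2 fold change 1.68, adjusted p = 0.0369, edgeR). HAMP, the iron hormone hepcidin, went from 0.397 and 0.422 CPM to 2.88 and 14.9 CPM (log2 fold change 4.41, adjusted p = 0.0399, edgeR). It had 7 and 8 counts in Hep3B, and 76 and 271 in SOX4 knockout, so knockout library 2 carried most of its signal. GPT2, the mitochondrial alanine aminotransferase, fell from 406 and 218 CPM to 76.7 and 76.9 CPM (log2 fold change -2.02, adjusted p = 0.0385, edgeR).

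Of 17 general Wnt targets, 4 rose and 13 did not pass, with a median of 0.79. CCND1, the cyclin of G1 phase, went from 17.8 and 25.2 CPM to 75.8 and 96.4 CPM (log2 fold change 2.00, SE 0.38, adjusted p = 0.0316, edgeR). TNFRSF11B, osteoprotegerin, went from 2.95 and 1.00 CPM to 16.9 and 36.7 CPM (log2 fold change 3.76, adjusted p = 0.0276, edgeR). CD44, the hyaluronan receptor, had 10 and 0 counts in Hep3B, and 253 and 292 in SOX4 knockout (adjusted p = 0.0355, edgeR). MMP7, the protease matrilysin, had 13 and 0 counts in Hep3B, and 137 and 2085 in SOX4 knockout (adjusted p = 0.0494, edgeR), so knockout library 2 carried most of its signal.

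Periportal genes, which Wnt signalling holds down in the liver, are given for contrast, and ALB and SERPINA1 among them are also hepatocyte markers. Of 11 tested, 3 rose and 8 did not pass, and the median was 1.88, the highest of the 8 lists with tested genes. FBP1, of gluconeogenesis, went from 0.681 and 0.580 CPM to 8.33 and 5.00 CPM (log2 fold change 3.39, adjusted p = 0.0316, edgeR). ARG1, arginase, had 0 counts in both Hep3B libraries and 69 and 15 in SOX4 knockout, at least 10.5-fold higher when Hep3B is set at 3 counts per library (adjusted p = 0.0399, edgeR). G6PC, glucose-6-phosphatase, had 3 and 1 counts in Hep3B, and 420 and 20 in SOX4 knockout, so knockout library 1 carried most of its signal. The pooled ratio was 90.2 with a counting interval of 35.0 to 333 (adjusted p = 0.0485, edgeR). That interval leaves out the spread between libraries. Pericentral and periportal lists thus both had medians above 0.

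**Figure D4:**
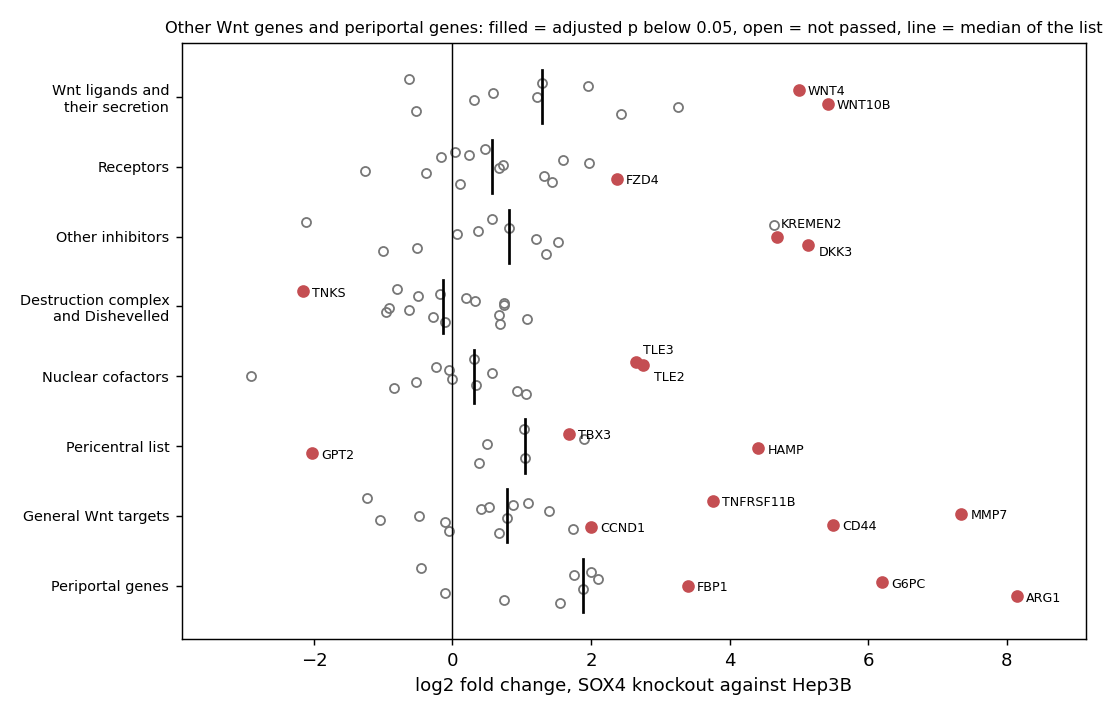
Log2 fold change, SOX4 knockout against Hep3B (horizontal axis), of the other Wnt genes and, for contrast, periportal genes, by list. Filled red points passed at an adjusted p below 0.05 (16 higher, 2 lower), open points did not, and black lines are list medians. The fitted values of genes with 3 counts or fewer in each Hep3B library (WNT4, WNT10B, ARG1, G6PC) depend on the prior count.

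Marker genes moved with the knockout comparison. The summed level of 12 hepatocyte markers was 11846 to 16399 CPM in Hep3B and 31548 to 53243 CPM in SOX4 knockout, and 4 of the 12 passed as higher. It was 14636 to 16691 CPM with control siRNA and 16253 to 21113 CPM with STAT6 siRNA. Of 7 stromal markers the 3 in the knockout table summed to 4.43 to 7.44 CPM in Hep3B and 77.5 to 101 CPM in SOX4 knockout. Of these 3, 2 passed as higher. LUM, the proteoglycan lumican, had 0.624 and 0.738 CPM in Hep3B and 85.5 and 54.2 CPM in SOX4 knockout (adjusted p = 0.00384, edgeR). PDGFRB had 2.84 and 1.27 CPM in Hep3B and 9.88 and 13.9 CPM in SOX4 knockout (adjusted p = 0.0494, edgeR). COL1A1 did not pass (adjusted p = 0.359, edgeR). Of 7 immune markers the 4 in that table summed to 35.7 to 90.6 CPM in Hep3B and 190 to 441 CPM in SOX4 knockout, mostly from LYZ and CD68, with 0 passing the test and PTPRC, the pan-leukocyte marker, at 0 to 6 counts. PECAM1, the 1 endothelial marker with a row, stayed at or under 0.770 CPM. In bulk RNA a change in the share of cells and a change in RNA per cell cannot be told apart, and the part of these markers in the values of the Wnt genes was not tested.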

How the data were processed

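RNA-seq of 8 Hep3B libraries (TRIzol RNA, stranded mRNA preparation per the labels) was analysed. The values the authors deposited are expected counts (reads assigned to RefSeq transcripts by estimation, without normalization), with a table for each comparison, and their processing notes name STAR, Partek and hg38 without versions or roles. No transcript had a sum under 10 over its 4 libraries. The design written for this work assumed counts, so the expected counts were summed per gene (16040 and 14955 genes), rounded, and given the same test.

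Fits used edgeR 4.0.16 under R 4.3.3, table by table: filterByExpr, TMM factors, estimateDisp, glmQLFit and glmQLFTest, with Benjamini-Hochberg adjustment and a threshold of 0.05. A standard error is the log2 fold change divided by the root of F. A fit of the 14826 genes in both tables gave the difference of effects and levels over 4 conditions. Steps were tested on simulated data, with 200 genes changed by 3 on the log2 scale. For the knockout comparison 160 of these were recovered, with 19 false calls. For the siRNA comparison 107 were recovered, with 5 false calls. Lengths per kilobase came from GENCODE release 29 transcripts, and gene positions and promoter windows from RefSeq GRCh38.p14, where all 10 genes matched by symbol. Intervals on ratios of low counts are exact binomial and cover counting error only.

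The 10 genes and all lists were chosen with earlier results of these data known, and support nothing beyond their own values. Named from the lists were the genes past the threshold in the knockout comparison, and ZNRF3 and CPS1 after their values were seen. For AXIN2 and GLUL, the 3 genes most alike by Pearson's r over 8 libraries were also named (mean count at least 100).

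The alternatives were median-of-ratios factors, the DESeq2 1.42.0 Wald test, omission of the low-count filter, a minimum of 10 counts in each library, legacy = TRUE in glmQLFit (identical to the default here) and, added after seeing the data, legacy = FALSE, a block for the library number, a fit of all 8 libraries, and leaving out each library. With 2 libraries in a group, no outlier rule could be used.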

Additional observations from a re-analysis of the deposited data

How the results depend on the processing

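In SOX4 knockout against Hep3B, 849 genes passed in the reported fit, 2160 with DESeq2, 518 with at least 10 counts in every library, 438 in the fit of all 8 libraries, and 21 to 2298 when 1 library was left out. DKK1 passed under every alternative apart from leaving out either SOX4 knockout library, so the count of the 10 genes passing was 0 to 1 with 1 library left out. The 18 genes of the pathway and periportal lists became 28 with DESeq2, 10 with at least 10 counts in every library, and 0 to 32 with 1 library left out. With 1 library left out, the lone library of its group was assumed to vary like the other group. The cause of these shifts was not tested.

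The library numbers give 2 pairs in each table, which does not establish pairing. The correlation of deviations of same-numbered libraries was -0.085 for the knockout experiment and 0.873 for the siRNA experiment. With the number as a replicate block, 982 genes passed in the knockout comparison and 62 in the siRNA comparison, where 0 passed without it. The block left the calls of the 10 genes at 1 and 0, and DKK1 in the knockout comparison at 2.64 (adjusted p = 0.0264, edgeR). For the difference between the perturbations in DKK1 the adjusted p was 0.0754 with the block and 0.0754 to 0.922 over 15 alternatives.

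In STAT6 siRNA against control siRNA, signs reversed where the differences were small. NKD1 was 0.00387 with median-of-ratios factors and 0.0027 with DESeq2, and RNF43 was 0.0134 with both. With 1 library left out, log2 fold changes ran from -0.55 to 0.69 for LGR5, -0.41 to 0.28 for RNF43, -0.0282 to 0.40 for LEF1, -0.19 to 0.48 for TCF7, -0.24 to 0.0715 for TCF7L2, -0.0025 to 0.48 for GLUL, -1.05 to 0.47 for DKK1, -1.27 to 0.16 for CTNNB1, -0.32 to 0.0829 for NKD1 and -1.16 to -0.31 for AXIN2. In the knockout comparison TCF7L2 ran from -0.0213 to 0.68 and reversed, and the other 9 genes kept their sign, from 0.60 to 0.81 for CTNNB1, 0.34 to 0.87 for LEF1, 0.32 to 0.89 for TCF7, 0.49 to 1.51 for GLUL, 0.25 to 1.40 for LGR5, 0.36 to 1.24 for AXIN2, -2.10 to -0.31 for NKD1, 0.18 to 0.46 for RNF43 and 2.19 to 3.01 for DKK1. The lowest value of GLUL, and that of NKD1 nearest 0, came without SOX4 knockout library 1.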

Other observations

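In the siRNA table the libraries numbered 2 were above those numbered 1 in both groups for AXIN2, CTNNB1, DKK1 and LGR5, and below them in both groups for GLUL, RNF43 and TCF7, on the scale of all 8 libraries. For LEF1, NKD1 and TCF7L2 the sides differed between the groups. Over all genes 89.3% had library 2 on the same side of library 1 in both groups.

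The genes whose log2 CPM was most like that of AXIN2 over the 8 libraries were IL18 (Pearson's r = 0.90), SPRY2 (0.90) and NF2 (0.89), the highest among 10987 genes. IL18 encodes a cytokine, SPRY2 an inhibitor of receptor tyrosine kinase signalling and NF2 the tumour suppressor merlin. For GLUL they were C1QTNF6 (0.97), F7 (0.97) and CLTCL1 (0.97), the highest among 10986 genes, of which F7 encodes coagulation factor VII. These values are descriptions over 8 libraries that share 4 conditions and 2 tables. Between AXIN2 and GLUL themselves r was 0.09, and between AXIN2 and LGR5 it was 0.81.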
